A study of Mus musculus with 10 samples.

Results

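Fibroblast growth factor (FGF) signalling was followed through the transcripts of 9 genes, namely the ligands *Fgf4* and *Fgf8*, the receptors *Fgfr1* and *Fgfr2*, and the ERK targets *Dusp6*, *Spry2*, *Spry4*, *Etv4* and *Etv5*. The genes were chosen by name, and all 9 were found among the 27998 genes of the E14Tg2a table and the 32285 genes of the R1 table. Each condition was 1 library of droplet-based scRNA-seq, taken during the conversion of mouse embryonic stem cells (ESC) into primordial germ cell-like cells (PGCLC). In the male ESC line E14Tg2a, 8 libraries held 2782 cells. ESC were sampled in 2i medium, which holds the MEK inhibitor PD0325901 at 0.4 µM, the GSK3β inhibitor CHIR99021 at 3 µM and LIF, and in medium with 15% FBS and LIF (S+L ESC). Epiblast-like cells (EpiLC) were made from 2i ESC with 20 ng/ml Activin A, 12 ng/ml bFGF and serum replacement and sampled on days 1, 2 and 3 (d1, d2 and d3 EpiLC), and epiblast stem cells (EpiSC) were passaged in the same doses of Activin A and bFGF. Embryoid bodies (EB), grown from EpiLC with 0.5 µg/ml BMP4, 0.1 µg/ml SCF, 50 ng/ml EGF and LIF and no added FGF, were sampled on days 2 and 4. EB cells were split into the 135 cells that the study lists as PGCLC (91 of 537 on d2 and 44 of 368 on d4) and the other EB cells. A second table held d4 EB of the male line R1, from wild-type cells (WT, 1416 cells) and from dCD cells (1699 cells), which is a clonal R1 line with point mutations that take the methyltransferase activity from MLL3 and MLL4. Those mutations leave the transcripts in place, so UMI counts do not check the genotype.

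FGFs bind receptor tyrosine kinases, and the signal passes through RAS, RAF and MEK to the kinase ERK. Naive mouse ESC make FGF4, which primes them to leave the naive state, and 2i medium holds them there in part by blocking MEK. ERK switches on its own brakes, among them the phosphatase DUSP6 and the Sprouty proteins SPRY2 and SPRY4, as well as the ETS transcription factors ETV4 and ETV5, so transcripts of these genes are widely used as a readout of the pathway. FGF8 is known for its part in the primitive streak, FGFR1 is the main receptor of epiblast cells, and FGFR2 is prominent in extraembryonic lineages.

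ETS factors such as ETV4 and ETV5 bind around a GGAA core, so the start regions of 3 of the targets are shown with each GGAA, on either strand (TTCC on the other), in capitals. RefSeq (GRCm38.p6) gives them as 250 bases before to 50 bases after the start, each on the gene's own strand. The *Dusp6* region at chr10:99262981-99263280 (plus strand) held 6 such cores, the *Spry2* region at chr14:105896770-105897069 (minus strand) held 5, and the 2 *Etv5* regions (minus strand) held 6 at chr16:22438319-22438618 and none at chr16:22439521-22439820.
Dusp6: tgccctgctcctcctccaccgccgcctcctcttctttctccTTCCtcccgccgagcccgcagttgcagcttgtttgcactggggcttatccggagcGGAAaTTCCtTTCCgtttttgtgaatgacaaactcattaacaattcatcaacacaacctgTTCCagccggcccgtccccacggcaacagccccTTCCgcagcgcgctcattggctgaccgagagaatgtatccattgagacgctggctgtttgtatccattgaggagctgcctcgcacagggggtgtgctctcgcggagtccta
Spry2: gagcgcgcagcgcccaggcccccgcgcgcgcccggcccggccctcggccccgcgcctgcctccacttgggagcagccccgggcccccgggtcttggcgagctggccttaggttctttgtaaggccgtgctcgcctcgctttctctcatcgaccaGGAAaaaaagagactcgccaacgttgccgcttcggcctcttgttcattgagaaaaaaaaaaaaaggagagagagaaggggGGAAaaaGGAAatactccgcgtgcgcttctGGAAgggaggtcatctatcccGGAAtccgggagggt
Etv5, 6 cores: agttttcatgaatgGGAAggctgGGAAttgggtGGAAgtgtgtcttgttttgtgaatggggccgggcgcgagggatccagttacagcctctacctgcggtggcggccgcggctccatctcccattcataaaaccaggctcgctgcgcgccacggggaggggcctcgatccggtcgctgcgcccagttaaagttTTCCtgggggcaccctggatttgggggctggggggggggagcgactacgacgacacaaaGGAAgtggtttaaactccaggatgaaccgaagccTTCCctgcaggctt
Etv5, no core: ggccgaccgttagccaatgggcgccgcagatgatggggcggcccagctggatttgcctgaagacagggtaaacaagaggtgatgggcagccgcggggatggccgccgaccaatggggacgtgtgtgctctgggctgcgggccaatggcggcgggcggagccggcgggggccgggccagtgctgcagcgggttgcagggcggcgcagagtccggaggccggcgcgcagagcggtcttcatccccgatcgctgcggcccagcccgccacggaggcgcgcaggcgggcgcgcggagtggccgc
Of all 32851 RefSeq start regions, 15.7% held at least 6 cores, 28.6% held at least 5 and 4.02% held none. Counts of 5 or 6 were thus not rare among start regions, while a count of 0 was, and a core is a run of letters, not a bound site. The *Fgf4* region held none and the *Fgfr2* region held 4, while no region was used for *Fgf8*, *Fgfr1*, *Spry4* and *Etv4*.

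A level is the sum of a gene's UMIs in a group of cells per 1000000 UMIs in all (CPM), and its 95% interval is exact Poisson. Ratios have exact conditional intervals and shares of cells exact Clopper-Pearson intervals, and all of them cover counting error only. With 1 library a condition, a difference between conditions cannot be told apart from one between libraries, and there is no test. A gene was called higher or lower where log2((CPM + 1)/(CPM + 1)) passed 2-fold, among genes with at least 10 UMIs in the 2 groups together. Median UMIs per cell ran from 21658 to 36750 in E14Tg2a and were 13187.5 in R1 WT and 11751 in dCD. The tables were made with different chemistry and were not compared by value. The listed PGCLC carried PGC markers, with *Prdm1* at 48.4 CPM against 2.99 CPM in the other d2 EB cells and *Dppa3* at 193 CPM against 2.69 CPM on d4. The study had picked out its PGCLC by such markers, both of these genes among them, so their levels are not independent evidence. Mitochondrial genes took 3.02% to 5.29% of UMIs in the E14Tg2a libraries, 5.21% in R1 WT and 6.84% in dCD. Barcodes shared between libraries numbered 8 in E14Tg2a and 0 in R1. Beside the members, 69 other genes of the pathway were counted (68 of them listed in the E14Tg2a table), namely other FGF ligands and receptors, receptors of EGF and SCF, the cascade from adaptors to ERK, feedback regulators such as *Dusp4* and *Spry1*, and genes that respond to ERK such as *Fos* and *Egr1*.

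**Figure D1:**
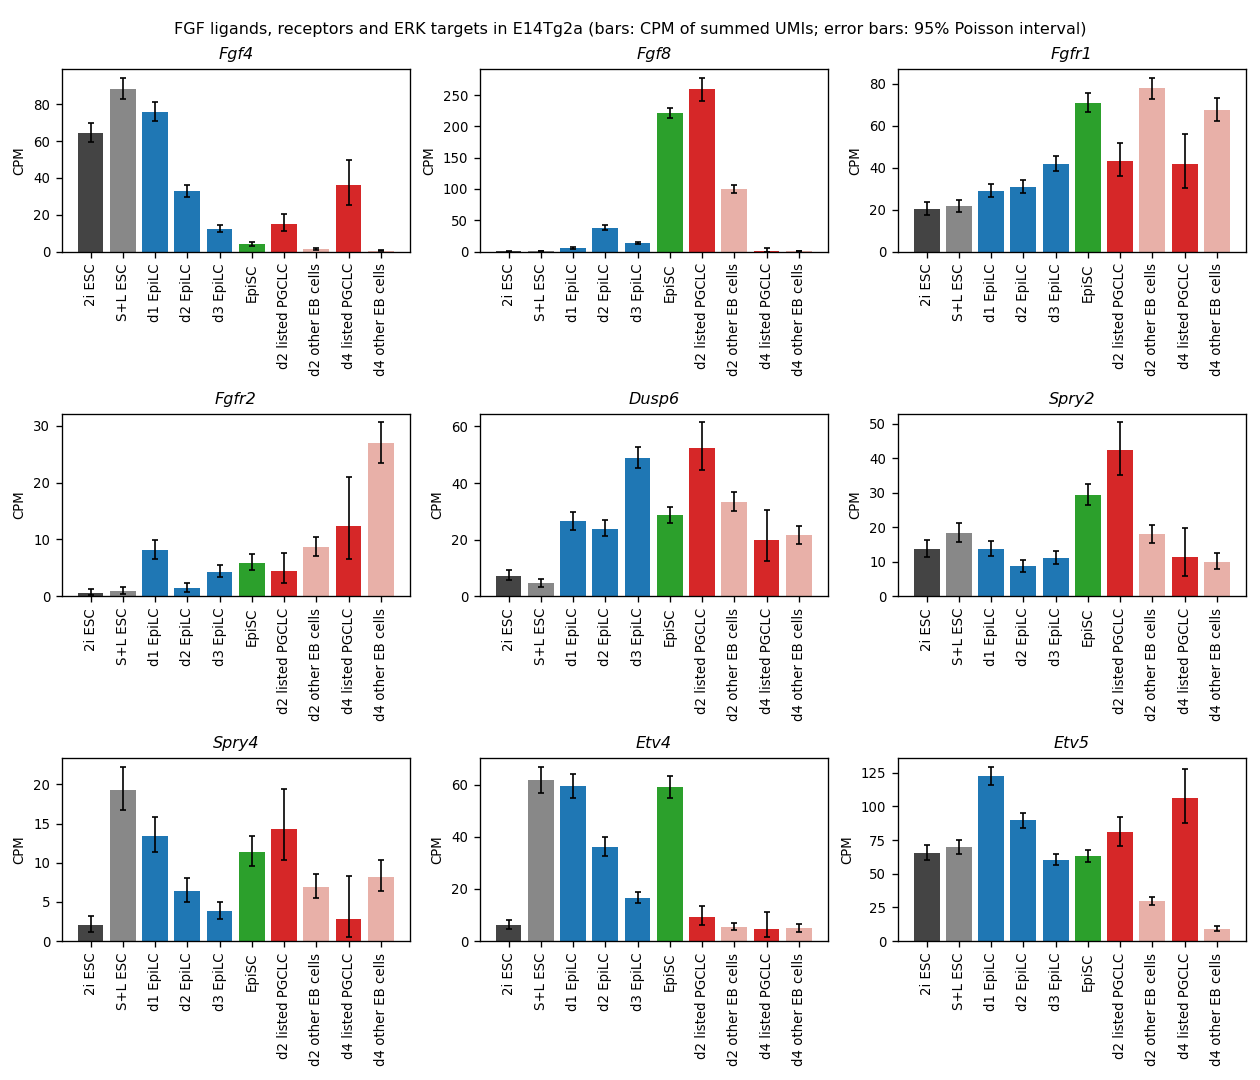
CPM of each of the 9 genes (vertical axes, linear, different scale in each panel) in 10 E14Tg2a groups (horizontal axes). Bars are UMIs summed over the cells of 1 group and error bars are 95% Poisson intervals. *Fgf4* was highest in ESC and d1 EpiLC, *Fgf8* in EpiSC and d2 EB, and *Etv4* and *Spry4* were low in 2i ESC and high in S+L ESC.

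*Fgf4* (chr7:144847367-144865243 in GENCODE, GRCm38) was at 64.4 CPM (59.2 to 69.9) in 2i ESC, 88.5 in S+L ESC, 75.9 in d1, 32.8 in d2 and 12.4 in d3 EpiLC, and 3.84 (2.84 to 5.08) in EpiSC. Its level was thus lower at each step from d1 EpiLC to EpiSC, with intervals that did not overlap. In EB it was at 15.0 CPM in d2 and 36.0 CPM in d4 listed PGCLC, against 1.28 and 0.234 CPM in the other EB cells, where d4 held only 2 UMIs. At an equal depth of 15374 UMIs per cell, 55.6% of 2i ESC, 5.54% of EpiSC, 28.9% of d4 listed PGCLC and none of the 293 other d4 EB cells held a UMI of *Fgf4*. Without thinning those shares were 87.7%, 11.0%, 38.6%, and 0.309% in the other d4 EB cells. Whether this last share is background of that library was not tested.

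*Fgf8* (chr19:45736798-45742915) was near its floor in ESC and highest in EpiSC and d2 EB. Its level was 0.228 CPM in 2i ESC (2 UMIs), 0.693 in S+L ESC, 5.46, 38.0 and 13.1 in d1, d2 and d3 EpiLC and 222 (214 to 230.1) in EpiSC. It was at 259 CPM (241 to 278) in d2 listed PGCLC and 99.8 in the other d2 EB cells, but d4 EB held only 6 UMIs of it in 368 cells. *Fgf8* was also the member with the most uneven spread over cells. The variance of UMIs per thinned cell over their mean, which is 1 for pure counting noise, was 9.79 in the other d2 EB cells, 8.10 in d2 listed PGCLC and 2.61 in EpiSC. For *Fgf4* the ratio lay between 1.17 and 1.42 in the ESC and EpiLC libraries. The 2 genes differed in level and these groups in their mix of cells, and the ratio was corrected for neither.

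Other FGF ligand genes filled in between them. *Fgf5*, a marker of formative and primed epiblast, was at 0.228 CPM in 2i ESC, 46.3, 72.6 and 96.1 in d1, d2 and d3 EpiLC and 147 in EpiSC, and at 0.682 in d2 listed PGCLC. *Fgf3* (chr7:144838083-144844436) and *Fgf15* (chr7:144896531-144900953) flank *Fgf4* on chromosome 7, on the same strand, yet their levels followed other orders. *Fgf15* was at 0.114 CPM in 2i ESC and highest in d1 EpiLC with 41.9 CPM, and *Fgf3* was highest in the other d2 EB cells with 42.4 CPM, where *Fgf4* was at 1.28 CPM. *Fgf17* was at 23.1 CPM in 2i ESC, 3.68 in d2 EpiLC and 11.4 in EpiSC.

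**Figure D2:**
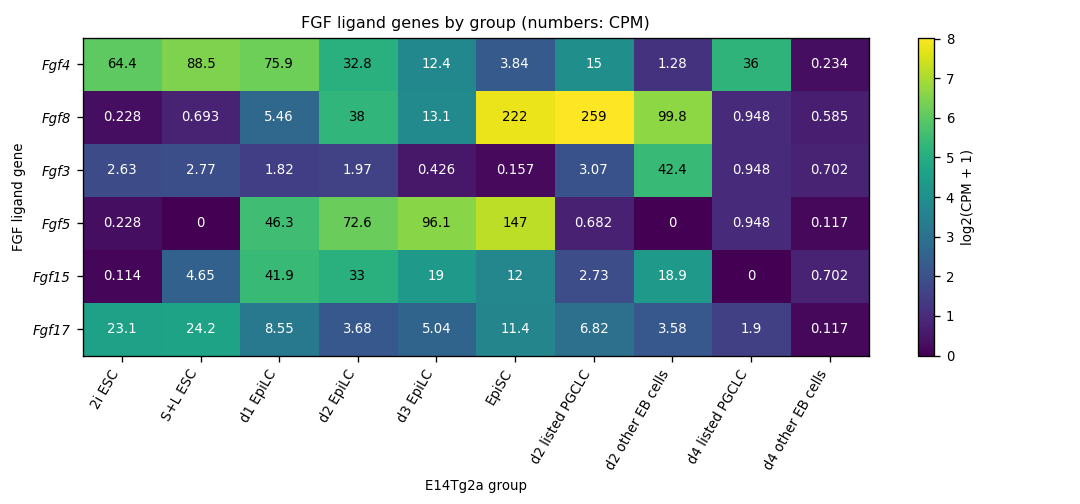
Levels of 6 FGF ligand genes (vertical axis) in 10 E14Tg2a groups (horizontal axis), with colour for log2(CPM + 1) and the CPM printed in each cell. The highest cell of *Fgf4* is S+L ESC, that of *Fgf8* d2 listed PGCLC, that of *Fgf3* the other d2 EB cells, that of *Fgf5* EpiSC and that of *Fgf15* d1 EpiLC.

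Of the receptors, *Fgfr1* (chr8:25513654-25575718) was found in every group. It was at 20.3 CPM in 2i ESC, 21.7 in S+L ESC, 29.0, 30.8 and 41.8 in d1, d2 and d3 EpiLC and 70.9 in EpiSC. Neighbours in that order, 2i and S+L ESC as well as d1 and d2 EpiLC, could not be told apart within their counting intervals. In EB the listed PGCLC held less of it than the other cells, 43.3 against 77.7 CPM on d2 and 41.7 against 67.6 CPM on d4.

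*Fgfr2* was near the floor in ESC, with 0.571 CPM (5 UMIs) in 2i and 0.891 in S+L ESC. Its levels in EpiLC had no single order in time, with 8.09 CPM on d1, 1.43 on d2 and 4.33 on d3, and it was at 5.88 in EpiSC. Its highest level was in the other d4 EB cells, 26.9 CPM, against 12.3 CPM in d4 listed PGCLC. Its interval in GENCODE (chr7:130162451-133123350) covers 2960900 bases and overlaps 69 other annotated genes, 36 of them on the same strand. Overlap of exons was not checked, and whether these genes affect its counts was not tested. *Fgfr1* and *Spry4* overlap only genes on the other strand (1 and 2), and the other 6 members overlap none.

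Of the ERK targets, *Dusp6* lies at chr10:99263231-99267489 on the plus strand, and *Spry2* (chr14:105891947-105896819), *Etv4* (chr11:101769742-101785371) and *Etv5* (chr16:22381309-22439719) lie on the minus strand. They were compared first between the 2 kinds of ESC, of which 1 was grown with a MEK inhibitor. *Etv4* had 6.05 CPM (4.53 to 7.92) with the inhibitor and 61.7 CPM (56.9 to 66.7) in S+L ESC, 10.2-fold (7.69 to 13.8) higher. *Spry4* was at 2.06 and 19.3 CPM, 9.39-fold (5.79 to 16.2) higher. These 2 genes set themselves apart from the other targets. *Etv5*, the close relative of *Etv4*, stood at 65.7 and 70.0 CPM, a ratio of 1.07 (0.953 to 1.19), and at equal depth 62.8% of 2i ESC and 61.8% of S+L ESC held a UMI of it. *Spry2* was at 13.6 and 18.4 CPM, a ratio of 1.35 (1.07 to 1.72). *Dusp6* was slightly lower in S+L ESC, 4.65 against 7.31 CPM, or 1.57-fold (1.06 to 2.34) lower. The 2 media differ in serum, in CHIR99021 and in their base as well as in PD0325901, and the part of each cannot be told apart.

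Over the 9 members, 8 passed the filter (*Fgf8* had too few UMIs), 2 were at least 2-fold higher in S+L ESC, 0 lower and 6 within 2-fold, and the median log2 ratio was 0.34 over the 8 members that passed the filter and 0.10 over all 12600 genes that passed it. Of all genes, 9.73% passed the rule as higher and 2.41% as lower. Of the 69 other pathway genes, 51 had enough UMIs, 13 passed the rule as higher and 0 as lower, and their median log2 ratio was 0.29. They included 5 of the 11 ERK-responsive genes counted, with *Fos* at 28.0 against 8.34 CPM and *Ier3* at 21.9 against 8.68 CPM, and the FGF receptor adaptor gene *Frs3* at 2.67-fold (2.00 to 3.62) higher.

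In d1 EpiLC most targets stood higher than in the 2i ESC they were made from. The medium had lost PD0325901, CHIR99021 and LIF and gained bFGF, Activin A and serum replacement, and the part of each cannot be told apart. *Etv4* reached 59.4 CPM in d1 EpiLC, 9.81-fold (7.41 to 13.2) the level of 2i ESC, and *Spry4* 13.5 CPM, 6.55-fold (4.00 to 11.4). *Dusp6* was at 26.6 CPM, 3.63-fold (2.76 to 4.84), and *Etv5* at 122 CPM, 1.86-fold (1.69 to 2.06), while *Spry2* was at 13.6 CPM, a ratio of 1.0 (0.784 to 1.29). The d1 level was a peak for *Etv4*, *Spry4* and *Etv5* within the EpiLC series but not for *Dusp6*. On d2 and d3, *Etv4* was at 36.2 and 16.7 CPM, *Spry4* at 6.36 and 3.83, and *Etv5* at 89.6 and 60.3. *Dusp6* instead was at 23.9 CPM on d2 and 49.0 CPM on d3, and *Spry2* at 8.70 and 11.1 CPM.

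Between d1 EpiLC and 2i ESC, 5 of the 9 members were at least 2-fold higher (*Fgf8*, *Fgfr2*, *Dusp6*, *Spry4* and *Etv4*) and 0 lower, beside 12.1% and 6.54% of all genes, and the median log2 ratio was 1.73 over the 9 members that passed the filter and 0.17 over all 12479 genes that passed it. Between d2 EpiLC and 2i ESC, 4 were higher (*Fgf8*, *Dusp6*, *Spry4* and *Etv4*) and 0 lower, beside 16.0% and 6.49% of all genes, and the median log2 ratio was 0.63 over the 9 members that passed the filter and 0.27 over all 12821 genes that passed it. *Fgf4* was 1.96-fold (1.72 to 2.25) lower there, just inside the 2-fold rule, and 166-fold (45.8 to 1379) was the ratio of *Fgf8* against only 2 UMIs. Both comparisons share the 2i ESC library. Of those 69 pathway genes, 50 passed the filter on d1, with 16 higher and 3 lower, and 50 on d2, with 14 higher and 2 lower, and their median log2 ratios were 0.60 and 0.57. *Dusp4*, a nuclear ERK phosphatase, was at 0.685 CPM in 2i ESC and 35.6 CPM in d1 EpiLC. *Dusp14* was lower, 1.91 against 6.17 CPM, as was *Kit*, the SCF receptor, with 0.182 CPM in d1 EpiLC against 24.9 CPM. Of the cascade genes, from *Frs2* to *Mapk3*, 2 of 19 were higher on d1 and 3 of 19 on d2, and 0 were lower. The rest, 17 and 16, stayed within 2-fold. The shares that were higher lay close to those of all genes, 12.1% on d1 and 16.0% on d2.

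From d2 to d3 EpiLC the targets split. *Etv4* was 2.17-fold (1.84 to 2.56) lower and *Spry4* 1.66-fold (1.15 to 2.41) lower, together with the ligands *Fgf4*, 2.66-fold (2.21 to 3.20) lower, and *Fgf8*, 2.91-fold (2.44 to 3.48) lower. *Dusp6* was 2.05-fold (1.77 to 2.37) higher. Of the 9 members, 2 were at least 2-fold higher (*Fgfr2* and *Dusp6*) and 3 lower (*Fgf4*, *Fgf8* and *Etv4*), beside 3.44% and 3.1% of all genes, and the median log2 ratio was -0.56 over the 9 members that passed the filter and -0.02 over all 13240 genes that passed it. The immediate early genes stood on the same side as *Dusp6*, with 9 of the 13 ERK-responsive genes counted at least 2-fold higher. *Fos* stood at 155 against 5.65 CPM, *Fosb* at 52.1 against 3.85 CPM and *Egr2* at 15.2 against 0.359 CPM, and *Ccnd1* was lower, at 73.6 against 149 CPM. *Fos*, *Jun*, *Junb*, *Egr1* and *Fosb* summed to 58.4 CPM on d2, 673 CPM on d3, 126 CPM in EpiSC and 557 and 905 in d2 and d4 EB, and their part in the *Dusp6* difference was not tested.

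EpiSC, which were kept in the same doses of Activin A and bFGF as EpiLC, differed from d2 EpiLC most in the ligands. *Fgf4* was 8.54-fold (6.33 to 11.8) lower and *Fgf8* 5.84-fold (5.27 to 6.48) higher. Both receptors were higher, *Fgfr1* 2.30-fold (2.03 to 2.61) and *Fgfr2* 4.10-fold (2.37 to 7.53). Of the targets, *Spry2* stood out at 29.3 against 8.70 CPM, 3.37-fold (2.69 to 4.26), while *Spry4* had 1.79 (1.34 to 2.41), *Etv4* 1.63 (1.44 to 1.84), *Dusp6* 1.20 (1.02 to 1.40) and *Etv5* 0.705 (0.641 to 0.774) times the d2 EpiLC level. In all, 4 members were at least 2-fold higher and 1 lower, beside 8.47% and 6.13% of all genes, and the median log2 ratio was 0.75 over the 9 members that passed the filter and 0.09 over all 13380 genes that passed it. *Fgf8* and *Spry2* belong to the EpiSC gene set and *Fgf4* to the ESC gene set that the study chose on these same cells, so their direction is not independent evidence. Of the 69 other pathway genes, 56 had enough UMIs, 10 passed the rule as higher and 4 as lower, and their median log2 ratio was 0.22. *Il17rd*, a membrane inhibitor of FGF signalling, was at 35.0 against 11.0 CPM and *Kit* at 10.8 against 2.33 CPM, and among those lower were *Gab1*, an adaptor, with 3.53 against 46.3 CPM, and *Fgf15* with 12.0 against 33.0 CPM. EpiSC medium, as described, lacked the serum replacement of EpiLC medium, and EpiSC were dissociated with another enzyme than all other cells. Neither can be told apart from the stage.

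At the level of single cells, the number of the 5 targets with at least 1 UMI was counted after all E14Tg2a cells had been thinned to 15374 UMIs. In 2i ESC 23.3% (17.9% to 29.4%) of cells held none and 3.59% (1.56% to 6.95%) held 3 or more. S+L ESC had 11.9% (8.46% to 16.2%) and 18.8% (14.5% to 23.7%), and d1 EpiLC had 4.87% (2.62% to 8.18%) and 33.0% (27.4% to 39.0%). Among the ESC, EpiLC and EpiSC libraries the share with 3 or more was lowest in 2i ESC, and d1 EpiLC and EpiSC, with overlapping intervals, had the highest shares. d2 EpiLC had 18.0% (13.7% to 23.0%), d3 EpiLC 12.9% (9.69% to 16.6%) and EpiSC 27.1% (22.6% to 32.0%). Among other EB cells, 32.0% (27.6% to 36.7%) on d2 and 56.0% (50.1% to 61.7%) on d4 held none, against 11.0% (5.40% to 19.3%) and 15.8% (6.02% to 31.3%) of the listed PGCLC. On d2, 5.84% (3.82% to 8.5%) of the other EB cells and 16.5% (9.53% to 25.7%) of the listed PGCLC held 3 or more, and on d4 4.44% (2.38% to 7.47%) and 13.2% (4.41% to 28.1%). For 3 or more, the interval of d2 listed PGCLC thus overlapped those of S+L ESC, d2 and d3 EpiLC and EpiSC. The intervals of the other EB cells for 3 or more overlapped that of 2i ESC. For none, that of the other d4 EB cells lay wholly above that of 2i ESC. Thinning left out between 0 and 31 shallower cells of an E14Tg2a group.

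**Figure D3:**
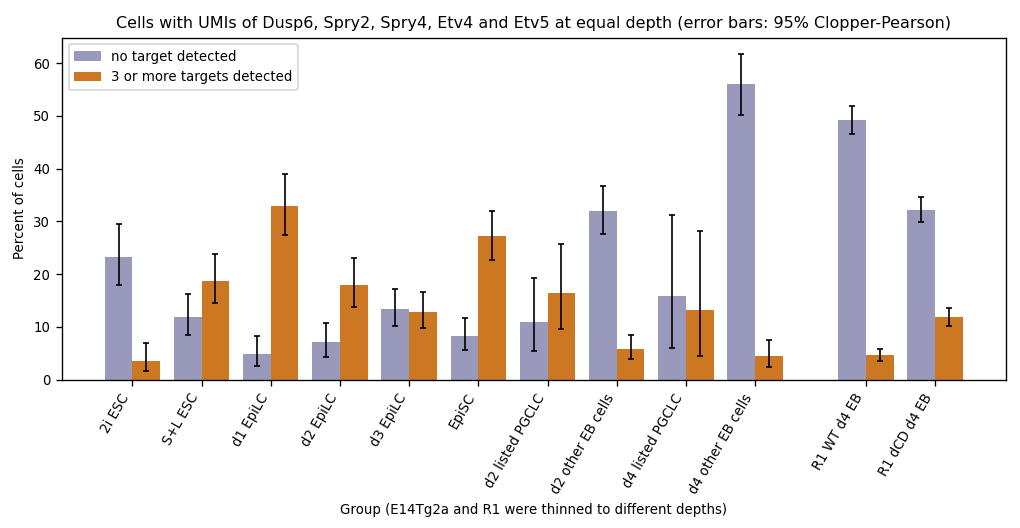
Percent of cells (vertical axis) in which no target, or at least 3 of *Dusp6*, *Spry2*, *Spry4*, *Etv4* and *Etv5*, had a UMI after thinning to equal depth, by group (horizontal axis), with 95% Clopper-Pearson intervals. The 2 R1 groups were thinned to 6831 UMIs per cell and are not comparable with the E14Tg2a groups, where d1 EpiLC has the highest share with 3 or more and the other d4 EB cells the highest share with none.

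Listed PGCLC were then compared with the other cells of the same EB library. On d2 the listed PGCLC held more of both ligands, *Fgf4* at 11.7-fold (6.40 to 22.7) and *Fgf8* at 2.60-fold (2.37 to 2.85) the level of the other cells. All 5 targets had ratios above 1. *Etv5* was at 80.8 against 29.7 CPM, 2.72-fold (2.30 to 3.22), and *Spry2* at 42.3 against 17.9 CPM, 2.36-fold (1.87 to 2.96). *Spry4* at 2.07 (1.39 to 3.04), *Etv4* at 1.66 (1.02 to 2.64) and *Dusp6* at 1.58 (1.30 to 1.91) times the level of the other cells did not reach the 2-fold rule, which counts 1 CPM onto each side. Both receptors were lower, *Fgfr1* by 1.79-fold (1.49 to 2.18) and *Fgfr2* by 1.95-fold (1.09 to 3.78), though neither passed the 2-fold rule and the *Fgfr2* difference was mostly that of 1 cluster of other EB cells, described with the clusters.

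On d4 a pair of genes stood apart. *Fgf4* had 38 UMIs in 44 listed PGCLC and 2 in 324 other cells, a ratio of 154 (39.8 to 1318), and *Etv5* was at 106 (87.4 to 128) against 9.12 CPM, 11.6-fold (8.64 to 15.7) higher. *Etv5* had a UMI in 81.6% of thinned d4 listed PGCLC and 10.9% of the other cells (90.9% and 16.7% without thinning). The intervals of the other 4 targets all held 1, with ratios of 0.920 (0.556 to 1.45) for *Dusp6*, 1.13 (0.563 to 2.08) for *Spry2*, 0.347 (0.07 to 1.06) for *Spry4* and 0.965 (0.298 to 2.44) for *Etv4*, with 3 to 21 UMIs each in the listed cells. Such low counts leave wide intervals. *Fgfr1* and *Fgfr2* were again lower, by 1.62-fold (1.19 to 2.26) and 2.18-fold (1.25 to 4.16).

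By count, 4 of 9 members were at least 2-fold higher in d2 listed PGCLC and 0 lower, beside 6.06% and 10.3% of all genes, and the median log2 ratio was 0.95 over the 9 members that passed the filter and -0.11 over all 12539 genes that passed it. On d4, 8 members passed the filter, 2 were higher (*Fgf4* and *Etv5*) and 2 lower (*Fgfr2* and *Spry4*), beside 8.64% and 31.3% of all genes, and the median log2 ratio was -0.08 over the 8 members that passed the filter and -0.46 over all 12378 genes that passed it. The study had placed *Fgf4*, *Spry2* and *Etv5* in its PGCLC gene set by comparing these same cells, so their direction carries no independent evidence. In the pathway lists, 1 gene was higher and 8 lower on d2, out of 51. *Erbb3*, an EGF-family receptor, was 2.51-fold (1.49 to 4.15) higher, and *Fgf3* (3.07 against 42.4 CPM), *Fgf15* (2.73 against 18.9 CPM) and *Myc* (5.11 against 24.5 CPM) were among the lower. On d4, 5 were higher, *Frs3*, *Kit* and *Ier3* among them, and 20 of 46 lower, including 10 of the 12 ERK-responsive genes. *Jun* was at 14.2 against 208 CPM, *Fosb* at 4.74 against 70.7 CPM and *Myc* at 1.90 against 51.8 CPM. *Etv5* and these genes, all known as responsive to ERK, thus stood on opposite sides in d4 listed PGCLC.

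**Figure D4:**
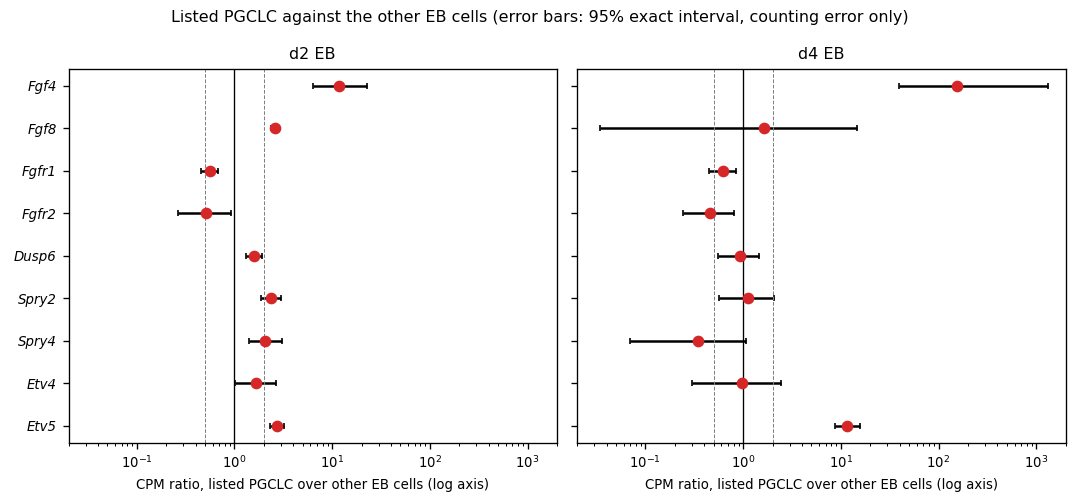
Ratio of CPM in listed PGCLC over the other EB cells (horizontal axes, logarithmic) for the 9 genes (vertical axes) on d2 (left) and d4 (right), with 95% exact intervals for counting error and dashed lines at 2-fold. On d2 the ligands and targets lie above 1 and the receptors below, while on d4 *Fgf4* and *Etv5* stand apart.

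The other EB cells were not of 1 kind, and the members differed between their k-means clusters, which were made without the members and the pathway genes. On d2 an extraembryonic ectoderm-like (ExE-like) cluster of 59 cells (leading genes *3830417A13Rik*, *Tinagl1*, *Igfbp2*, *Vgll3* and *Esx1*) held the most of both receptors and the least of every target but *Etv4*, which was at 10.8 CPM there and 4.29 and 9.0 in the other 2 clusters. There *Fgfr1* was at 152 CPM and *Fgfr2* at 22.0 CPM, against 59.9 and 5.36 in the extraembryonic mesoderm-like (ExM-like) cluster of 380 cells (*Hoxc8*, *Pitx1*, *Hoxc9*, *Hoxa9* and *Ramp2*). *Dusp6* was at 8.19 CPM in the ExE-like cluster, 38.0 in the ExM-like cluster and 56.7 in the PGC-like cluster of 98 cells (*Tdh*, *Dppa3*, *Nanog*, *1700097N02Rik* and *Cenpv*), which held 86 of the 91 listed PGCLC. *Etv5* was at 12.1, 33.3 and 82.0 CPM and *Fgf8* at 12.9, 105 and 307 CPM in the same order. With the ExE-like cluster left out of the other cells, the log2 ratio of *Fgfr1* in d2 listed PGCLC went from -0.83 to -0.45, that of *Fgfr2* from -0.82 to -0.22 and that of *Fgf8* from 1.37 to 1.09. The cluster held 51 of the 101 *Fgfr2* UMIs of the other d2 EB cells, so most of the *Fgfr2* difference on d2 lay in those 59 cells.

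On d4 the ExE-like cluster of 37 cells (*Rhox6*, *Rhox9*, *Krt7*, *Gm9112* and *Serpinb9e*) again held few target UMIs, with *Dusp6* at 2.81 CPM, *Etv5* at 2.81, *Spry2* at 1.69 and *Spry4* at 0.562. *Fgfr1* there was at 66.9 CPM. The ExM-like cluster of 253 cells (*Ptn*, *Pitx1*, *Col3a1*, *Gal* and *Igfbp7*) had *Dusp6* at 25.9 CPM, *Spry2* at 13.7, and the highest *Fgfr2* of the d4 clusters with 33.2. An endothelium-like cluster of 29 cells (*Cldn5*, *Ctla2a*, *Emcn*, *Sox18* and *Gimap6*) held the highest *Etv4* of them, 18.3 CPM (11.8 to 27.3), against 3.38 (2.00 to 5.34) in the ExM-like cluster. Cluster 2 of d4 EB (49 cells, *Hba-a1*, *Hba-x*, *Hbb-y*, *Hba-a2* and *Dppa5a*), which held all 44 listed PGCLC, was left unnamed because naive markers outranked PGC markers and globin genes led it.

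The last comparison set dCD against WT d4 EB of R1. *Fgf4* was at 7.53 CPM (6.39 to 8.81) in WT and 33.6 (31.2 to 36.0) in dCD, 4.46-fold (3.75 to 5.33) higher. *Spry4* was at 17.2 and 40.8 CPM, 2.37-fold (2.10 to 2.69) higher, and *Fgfr2* at 23.5 and 10.4 CPM, 2.27-fold (1.94 to 2.66) lower. All 5 targets had ratios above 1, and 4 of them stayed within 2-fold. *Dusp6* was at 26.9 CPM in WT and 52.9 in dCD, a ratio of 1.97 (1.78 to 2.18), and *Spry2* at 42.6 and 55.0 CPM, 1.29 (1.18 to 1.41). The ETS genes were close behind, *Etv4* at 13.0 and 22.3 CPM, 1.72 (1.48 to 2.00), and *Etv5* at 38.9 and 55.8 CPM, 1.44 (1.31 to 1.57). *Fgfr1* was at 102 and 129 CPM, 1.26 (1.19 to 1.34) times the WT level, and *Fgf8* at 7.87 and 7.03 CPM, 0.894 (0.714 to 1.12) times. At an equal depth of 6831 UMIs, 4.61% (3.56% to 5.86%) of WT cells and 11.8% (10.2% to 13.5%) of dCD cells held 3 or more targets, with 50 WT and 170 dCD cells too shallow to count.

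Of the 9 members, 2 were at least 2-fold higher in dCD (*Fgf4* and *Spry4*), 1 lower (*Fgfr2*) and 6 within 2-fold, beside 6.31% and 3.68% of all genes, and the median log2 ratio was 0.51 over the 9 members that passed the filter and 0.03 over all 16272 genes that passed it. Of the 69 other pathway genes, 59 had enough UMIs, 2 passed the rule as higher and 7 as lower, and their median log2 ratio was -0.16. *Gab1* was 2.41-fold (2.18 to 2.67) higher and *Fgf1* stood at 2.14 against 0.437 CPM, whereas *Ccnd1* (76.3 against 206 CPM), *Fosb* (6.16 against 19.2 CPM) and *Dusp4* (12.0 against 29.9 CPM) were among those lower. The 5 lower ERK-responsive genes were *Fos*, *Fosb*, *Fosl1*, *Myc* and *Ccnd1*, and the other 9 of the 14 stayed within 2-fold.

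The mix of cells differed between the 2 R1 libraries. Among 9 k-means clusters, cluster 1 (leading genes *Fam25c*, *Ooep*, *Mylpf*, *Hsd17b14* and *Tcl1*) held 7.20% of WT and 30.7% of dCD cells. At least 2-fold above the other clusters were 6 of 7 naive pluripotency markers, 4 of 6 PGC markers and 4 of 4 markers of the 2-cell embryo. Cluster 1 carried 81.9% of the *Fgf4* UMIs of WT and 90.5% of those of dCD. Within cluster 1 the *Fgf4* level was 79.0 CPM in WT and 84.6 in dCD, a ratio of 1.07 (0.885 to 1.30). The interval inside the cluster that held most *Fgf4* UMIs thus spanned 1 and lay wholly below the library-wide ratio. With cluster 1 left out of both libraries, a choice made after seeing the data, the log2 ratio of *Fgf4* went from 2.02 to 1.27 and that of *Etv5* from 0.51 to 0.04, while those of *Spry4* and *Dusp6* went from 1.20 to 1.59 and from 0.95 to 1.30.

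The targets inside clusters did not share 1 direction. Shares of all genes were not counted inside clusters, so none stands beside the counts of members there. Whether genes at large differed in the same way was not tested. In cluster 1 none of the targets was higher in dCD, and *Spry2* had a ratio of 0.452 (0.374 to 0.548), *Etv5* of 0.670 (0.581 to 0.776) and *Etv4* of 0.733 (0.576 to 0.941). In cluster 5 (*Tril*, *Npy*, *Col25a1*, *Syt6* and *Crabp1*, 179 WT and 130 dCD cells) all 5 were higher, *Spry4* at 4.06 (2.98 to 5.61), *Dusp6* at 2.85 (2.09 to 3.90) and *Etv5* at 2.13 (1.5 to 3.05) times the WT level. Cluster 7 (*Vgll3*, *Ccl2*, *Cryab* and *Wnt4* among its leading genes, 159 and 91 cells) had *Spry4* at 3.74 (2.52 to 5.65) and *Etv5* at 2.42 (1.46 to 4.08) times the WT level. In cluster 4 (*Hba-x*, *Hbb-y*, *Hbb-bh1*, *T* and *Six2*, 78 and 291 cells) *Dusp6* had a ratio of 3.16 (2.30 to 4.45), *Spry4* of 1.87 (1.34 to 2.66) and *Etv5* of 0.688 (0.515 to 0.928). *Spry4* was thus higher in dCD in 3 of the 4 clusters with at least 50 cells of each library, and its ratio in cluster 1 was 0.737 (0.547 to 1.01).

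Receptors and *Fgf8* also differed by cluster. *Fgfr1* was higher in dCD in clusters 4, 5 and 7, at 2.20 (1.79 to 2.71), 1.82 (1.57 to 2.12) and 1.40 (1.24 to 1.59) times the WT level, and at 0.974 (0.777 to 1.23) in cluster 1. *Fgfr2* was lower in clusters 4 and 5, with ratios of 0.293 (0.142 to 0.603) and 0.195 (0.0803 to 0.41), and its ratio was 3.80 (1.57 to 12.0) in cluster 1, where WT had only 5 UMIs. Cluster 2 (ExM-like, *Tbx4*, *Pitx1*, *Gal*, *Phlda2* and *Wnt2*), with 474 WT and 19 dCD cells, held 47.1% of the WT UMIs of *Fgfr2*. *Fgf8* UMIs came mostly from clusters 4 and 9 in WT, 53.1% and 44.4%, and from clusters 4 and 3 in dCD, 48.4% and 28.0%. Cluster 9 was PGC-like (*BC048679*, *Ap3b2*, *Igfbpl1*, *Lefty1* and *Dppa3*) with 155 WT and 8 dCD cells, and cluster 3 (*Gm12800*, *BC080695*, *Lgals4*, *Coch* and *Dmrtb1*) had 1 WT and 398 dCD cells. Within cluster 4 *Fgf8* was at 71.4 CPM in WT and 20.1 in dCD, which is 0.281 (0.204 to 0.387) times the WT level against 0.894 (0.714 to 1.12) over all cells. *Etv5* in the PGC-like cluster 9 was at 116 CPM and *Fgf4* at 4.10 CPM, against 110.0 and 83.7 CPM in cluster 1.

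**Figure D5:**
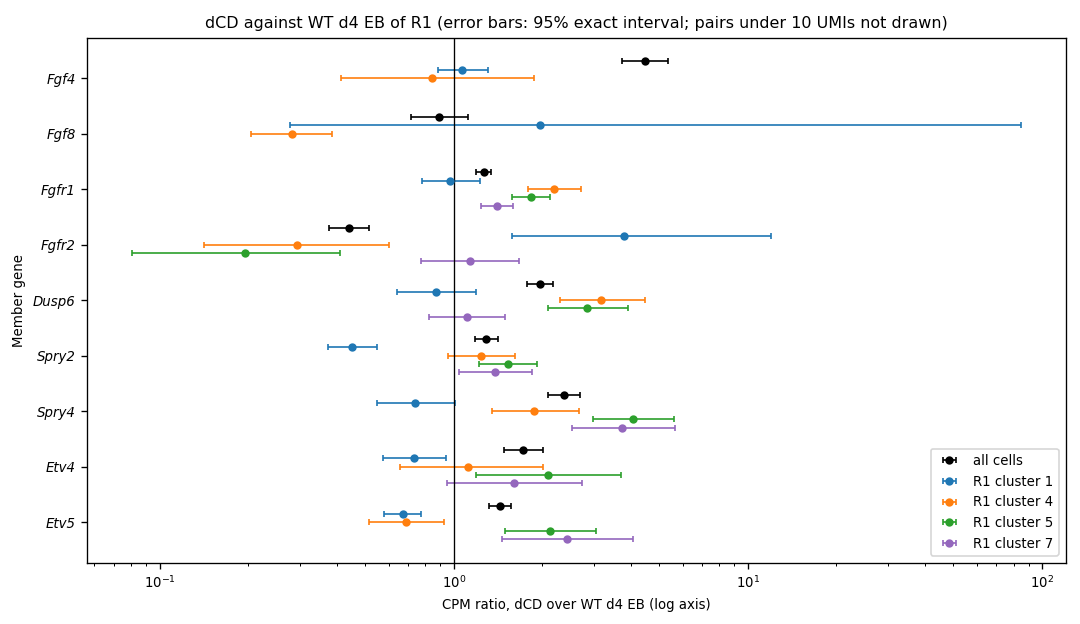
Ratio of CPM in dCD over WT d4 EB (horizontal axis, logarithmic) for the 9 genes (vertical axis), over all cells (black) and within the 4 clusters that held at least 50 cells of each library (colours), with 95% exact intervals for counting error. The *Fgf4* ratio over all cells is far above that within cluster 1, and the targets lie at or below 1 in cluster 1 and mostly above 1 in clusters 5 and 7.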

How the data were processed

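Droplet-based scRNA-seq libraries (10x Genomics 3′ chemistry, v2 for E14Tg2a and v3 for R1) were used as the authors deposited them, as UMI counts per gene and cell. The E14Tg2a counts were made with Cell Ranger on GRCm38 (mm10), and the 8 libraries were aggregated after subsampling to equal mapped reads per cell, which lowers the counts of the deeper libraries. The deposited R1 counts had cells with at least 2000 genes only. The gene annotation of both tables, and the counting tool of the R1 table, are not given in the sources used here. Stages followed the barcode suffix and the list of PGCLC in the study's supplement, and 0 columns of values were left unused. Of 27998 Ensembl identifiers, 27645 were paired with a symbol through GENCODE (GRCm38), and the R1 table names genes by symbol. Start regions from RefSeq matched 5 of 9 members.

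Total UMIs per library ran from 8757170 to 22887974, which limits the precision together with the single library per condition. UMIs were summed per group (CPM), compared with a pseudocount of 1 CPM, a minimum of 10 UMIs and a 2-fold rule, and thinned without replacement (seed 1) to the 10th percentile of the shallowest library. Doublets were called with Scrublet in scanpy 1.11.5 (0.589% to 6.23% of a library) and kept. Clusters were made by k-means (3, 4 and 9 clusters) on 20 (R1, 10) principal components of 2000 variable genes in scikit-learn 1.9.0 with the members and pathway genes left out, and were named from marker lists. Python 3.11.15, numpy 2.4.6, scipy 1.17.1, pandas 2.3.3 and matplotlib 3.10.9 were used. The computations were tested on simulated Poisson counts, which hold no spread between cells beyond counting noise, so that spread was not covered. The members and lists were chosen with earlier results of these data known. All 9 members are named, and per comparison up to 3 pathway genes in each direction with at least 50 UMIs and the largest ratio, the 3 genes most like a member, and the 5 leading genes of each cluster described, apart from items that are not reported here. Other genes of a list named beside them were chosen after their values were seen. Alternatives changed the scaling, depth, doublets, pseudocount, filter, weighting of cells, fold rule and the cells compared.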

Additional observations from a re-analysis of the deposited data

Results flagged for a closer look

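The dCD against WT ratio pointed in opposite directions in different cell clusters for 4 members, with counting intervals on opposite sides of 1, and the difference between the clusters was not tested. How many of all genes did so was not counted. *Fgfr2* had a ratio of 3.80 (1.57 to 12.0) in cluster 1 and 0.195 (0.0803 to 0.41) in cluster 5. *Spry2* had 0.452 (0.374 to 0.548) in cluster 1 and 1.52 (1.21 to 1.92) in cluster 5. *Etv4* had 0.733 (0.576 to 0.941) in cluster 1 and 2.09 (1.19 to 3.71) in cluster 5. *Etv5* had 0.670 (0.581 to 0.776) in cluster 1 and 2.42 (1.46 to 4.08) in cluster 7. Each side of these ratios is 1 library. Cluster 1 held 102 WT and 522 dCD cells, and the WT cells there had a median of 15426 UMIs against 14185 in dCD.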

How the results depend on the processing

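No paired analysis was possible because each condition has 1 library. Of 619 recomputed member ratios, 593 stayed within the counting interval of the reported value, 26 moved outside it and none that passed 2-fold reversed. The 593 include the ratios under the 1.5-fold and 3-fold rules and without the filter on low counts. Those settings leave a ratio as it is, so these ratios could not move. The dCD comparison held 15 of those 26, 8 of them with R1 cluster 1 left out, and every other comparison 3 or fewer. Counts of members past the fold rule depended mainly on where that rule was set. Shares of all genes were counted for the main 2-fold rule only, so none stands beside the counts of these alternatives. With a 1.5-fold rule, 2 members were lower in d2 EpiLC against 2i ESC, 7 were higher and 2 lower in d2 listed PGCLC, and 4 were higher in dCD. With a 3-fold rule, 0 were higher and 0 lower in d3 EpiLC, 2 higher in EpiSC, 1 higher in d2 listed PGCLC, 0 lower in d4 listed PGCLC, and 1 higher and 0 lower in dCD. Median-ratio scaling gave 1 lower member in d2 EpiLC against 2i ESC (*Fgf4*) and 1 in d4 listed PGCLC. The mean of per-cell CPM gave 1 higher member in d3 EpiLC. Thinning, leaving out doublets, a pseudocount of 0.1 CPM and no filter moved no count by more than 1.5 times. Without thinning, 3 or more targets were detected in 20.3% of 2i ESC, 44.7% of S+L ESC, 71.1%, 51.6% and 42.1% of d1, d2 and d3 EpiLC, 61.7% of EpiSC, 23.6% and 11.7% of d2 and d4 EB, 53.8% and 17.5% of d2 listed PGCLC and other cells, 10.8% of the other d4 cells, and 14.8% and 27.7% of R1 WT and dCD cells, since more UMIs per cell detect more targets. Depth limits *Fgfr2* and *Fgf8* in ESC and *Spry4* and *Etv4* in d4 listed PGCLC, each with 9 UMIs or fewer.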

Other observations

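Cells of d2 EB and EpiSC were also split by *T* (Brachyury, a marker of primitive streak and nascent mesoderm) after thinning. Among other d2 EB cells, *Fgf8* was at 257 CPM against 59.8 CPM, a ratio of 4.31 (3.71 to 5.01), in 119 cells with and 309 without a *T* UMI. *Dusp6* there was at 51.9 CPM against 30.7 CPM, a ratio of 1.69 (1.29 to 2.20), and *Etv5* at 42.6 CPM against 24.4 CPM, a ratio of 1.75 (1.29 to 2.35), while *Fgfr1* was at 50.8 CPM against 77.7 CPM, a ratio of 0.654 (0.516 to 0.824). The d2 listed PGCLC showed the same split for *Fgf8*, with 432 CPM against 88.0 CPM, a ratio of 4.91 (3.61 to 6.83) in 57 and 34 cells. In the listed PGCLC the intervals of *Etv5* (0.763, 0.503 to 1.16), *Dusp6* (1.46, 0.853 to 2.60) and *Fgfr1* (0.954, 0.529 to 1.76) held 1, as did those of EpiSC, where *Etv5* had a ratio of 0.943, *Dusp6* of 1.21 and *Fgfr1* of 1.02. The other d2 EB cells include the ExE-like cluster, low in *T* at 5.60 CPM and in both targets, and its part in their split was not tested. *Fgf4* went the other way in the listed PGCLC, with 5.71 CPM against 24.9 CPM, a ratio of 0.229 (0.0640 to 0.686), on 5 and 13 UMIs. In EpiSC, *Fgf8* was at 288 CPM against 179.9 CPM, a ratio of 1.60 (1.42 to 1.80), and *Spry4* at 14.4 CPM against 6.82 CPM, a ratio of 2.11 (1.17 to 3.80). Cells of 1 library share their source, so these ratios describe the library and have no replicate check.

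The genes whose log2(CPM + 1) ran most like each member over the 10 E14Tg2a groups were ranked by Pearson's r among 10102 genes, as a description over 10 points that share libraries. They were *Helb*, *Esco2* and *Frrs1* (r from 0.978 to 0.989) for *Fgf4*, *Pifo*, *Mkx* and *Pgr* (r from 0.932 to 0.945) for *Fgf8*, *Ccdc167*, *Cdk14* and *Morf4l2* (r from 0.97 to 0.976) for *Fgfr1* and *Pomgnt1*, *Terf2ip* and *Brf1* (r from 0.948 to 0.956) for *Fgfr2*. For the targets they were *Ktn1*, *Zcrb1* and *Cnnm3* (r from 0.925 to 0.949) for *Dusp6*, *Gm16702*, *T* and *Pate2* (r from 0.864 to 0.904) for *Spry2*, *Gm15491*, *Pomc* and *Glul* (r from 0.846 to 0.901) for *Spry4*, *Btbd17*, *Usp44* and *Tnfsf11* (r from 0.918 to 0.947) for *Etv4* and *Dbf4*, *Txlng* and *Mt1* (r from 0.948 to 0.956) for *Etv5*. Between members, *Etv5* ran with *Fgf4* (r = 0.823) more than with *Etv4* (r = 0.466), and *Fgfr1* ran against *Fgf4* (r = -0.926). From cell to cell within a group the members were only weakly related, with Spearman's rho from -0.182 to 0.255 over 229 pairs with at least 50 UMIs each.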
